A study of Mus musculus with 4 samples.

Results

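Of the 7845 distinct small RNA sequences deposited for 4 libraries of mouse liver and spleen, 706 (9.0%) had a length of 16 to 20 nt. All sequences of these lengths were taken from each list, whatever their gene, and were placed at their single best position in the genome (NCBIM37) with at most 1 mismatch. The libraries came from the liver and the spleen of 1 wild type (WT) mouse and of 1 Miwi2-/- mouse, both adult C57BL/6, and each tissue and genotype had 1 library, so no value has a replicate check. RNA had been cut from a gel at about 24 to 31 nt per the labels, the study's methods give a somewhat wider range, and the short sequences lie below both. The lists hold sequences from regions of genes whose 3' untranslated region (3' UTR) was rich in sense small RNAs, each sequence is listed once, and no read counts were given. A common and a rare RNA therefore weigh the same, and a list's size is not the depth of its library.

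They numbered 283 of 4273 for WT liver and 268 of 2634 for WT spleen, with 81 of 560 for Miwi2-/- liver and 74 of 378 for Miwi2-/- spleen. Of the 706, 151 lay in the Mir21 gene and are described apart. Of the other 555, 472 were covered for at least 50% of their length by a protein-coding 3' UTR of GENCODE M1. After 3 sequences in 3' UTRs on both strands were set aside, 469 sequences from 285 genes could be turned to the direction of their gene. The strand of the gene matched that of the deposited region for 465 of 467 sequences that had both.

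PIWI proteins bind small RNAs called piRNAs, which in the testis are often cut from long single-stranded transcripts, including the 3' UTRs of mRNAs, and often begin with U. MIWI2, the product of Piwil4, is a PIWI protein best known from fetal germ cells, where it takes part in the silencing of retrotransposons. The 3' end of a piRNA is trimmed to a length that fits its PIWI protein, while microRNAs are shorter and are cut from hairpins by Drosha and Dicer.

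The following sequences show what the 16 to 20 nt class looked like beside longer sequences of the same place, each read 5' to 3' in the direction of the gene and with its last base in capitals. The first set is from the 3' UTR of Dnmt3a (plus strand, chr12:3911926-3911950), which encodes a DNA methyltransferase. The first 2 were in all 4 lists, and the last 4 began at the same base.
Dnmt3a, 20 nt, all 4 lists: actacaaggtcttcaggaaC
Dnmt3a, 19 nt, all 4 lists: ctacaaggtcttcaggaaC
Dnmt3a, 20 nt, WT spleen and Miwi2-/- liver: ctacaaggtcttcaggaacT
Dnmt3a, 22 nt, WT spleen: ctacaaggtcttcaggaactgA
Dnmt3a, 24 nt, WT spleen: ctacaaggtcttcaggaactgtgA
The shorter sequences stopped at C or U (T in the list), and both longer ones, each with 1 mismatch to the genome, stopped at A.

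The second set is from the 3' UTR that GENCODE M1 gives for Hist1h1c (plus strand, chr13:23831402-23831440), the gene of a linker histone. It is shown because this gene had the most short sequences in both spleen lists.
Hist1h1c, 17 nt, WT liver and both spleen lists: acttaagagctgtgacA
Hist1h1c, 19 nt, WT liver and both spleen lists: ttaagagctgtgacatttG
Hist1h1c, 19 nt, WT spleen: aagagctgtgacatttgtG
Hist1h1c, 18 nt, Miwi2-/- spleen: aagagctgtgacatttgT
Hist1h1c, 22 nt, WT liver and both spleen lists: aagagctgtgacatttgtgtaA
Hist1h1c, 25 nt, WT spleen: aagagctgtgacatttgtgtgattA
The last 4 lines began at the same base and differed in where they stopped.

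The third set holds, from other genes, the short sequence that shared its 5' end with the most longer sequences, beside 1 of those. Alb (plus strand, chr5:90905507-90905534) encodes serum albumin, Scd1 (minus strand, chr19:44470175-44470204) a fatty acid desaturase of the liver, and Mbnl1 (plus strand, chr3:60431252-60431275) a regulator of splicing. All lie in the 3' UTR.
Alb, 18 nt, WT liver: atgaagactcaggactcA
Alb, 28 nt, WT liver: atgaagactcaggactcatcttttctgA
Scd1, 19 nt, WT liver: gttttgttgaagtagaaaA
Scd1, 30 nt, WT liver: gttttgttgaagtagaaaatctcatagaaA
Mbnl1, 20 nt, both spleen lists: tatgccatttctgagacacA
Mbnl1, 24 nt, both spleen lists and Miwi2-/- liver: tatgccatttctgagacacaattA
These 3 short sequences and the longer ones printed with them ended in A, but the Alb sequence had longer partners of 21 and 23 nt, both exact matches, that ended in U.

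Outside Mir21, sequences of 16 to 20 nt were a larger share of the spleen list than of the liver list, and a larger share of each Miwi2-/- list than of the WT list of the same tissue. They were 232 of 4059 sequences in WT liver (5.72%, 95% Wilson interval 5.04 to 6.47), 213 of 2421 for WT spleen (8.80%, 7.73 to 9.99), 55 of 464 for Miwi2-/- liver (11.9%, 9.22 to 15.1) and 55 of 308 for Miwi2-/- spleen (17.9%, 14 to 22.5). By two-sided Fisher's exact tests with Benjamini-Hochberg adjustment, the adjusted p was 3.43e-06 for WT spleen minus WT liver (3.08 percentage points), for Miwi2-/- minus WT liver (6.14) and for Miwi2-/- minus WT spleen (9.06). Each test compares 2 libraries, not tissues or genotypes. Many of the sequences overlap and are not independent, so the p values overstate the evidence. The intervals cover counting error only. The paper reports far fewer reads for each Miwi2-/- library than for the WT library of its tissue, and the deposited regions are those of the WT libraries. The part of depth and of the choice of regions in these differences was not tested.

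The excess in the Miwi2-/- lists was made up largely of 20 nt sequences. These were 2.22% of the WT liver list (1.81 to 2.72) and 7.33% of the Miwi2-/- liver list (5.29 to 10.1), and 3.55% of the WT spleen list (2.89 to 4.37) and 11.4% of the Miwi2-/- spleen list (8.29 to 15.4). Sequences of 16 to 19 nt were 3.5%, 4.53%, 5.25% and 6.49% of WT liver, Miwi2-/- liver, WT spleen and Miwi2-/- spleen. With 16 to 19 nt alone as the short class, the Miwi2-/- minus WT difference was 1.03 points in liver and 1.25 points in spleen, and the adjusted p by Fisher's exact test was 0.349 for both. The Miwi2-/- lists were also higher at 21 nt in liver, with 10.6% against 3.84%, whereas the spleen lists held 8.12% against 7.81%.

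**Figure D1:**
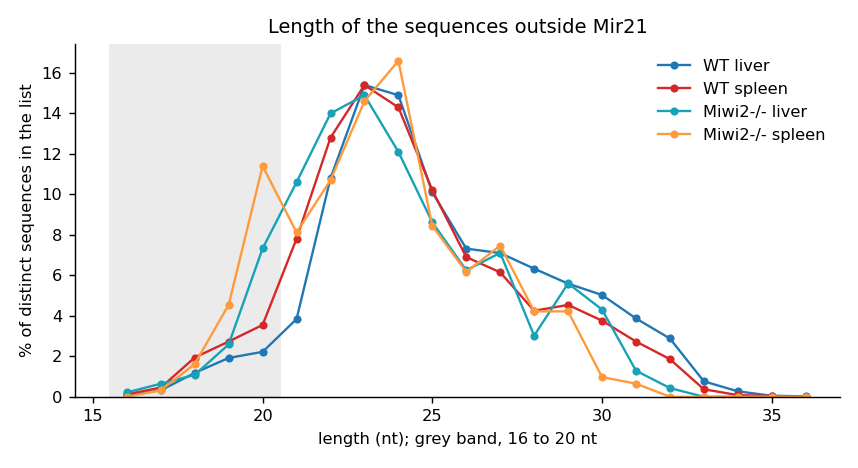
Percent of the distinct sequences outside Mir21 in each list (y axis) at each length in nt (x axis), 1 line per library, with the 16 to 20 nt class in grey. All lists peak at 23 or 24 nt, and in the grey band the Miwi2-/- lines rise above the WT lines at 20 nt (7.33% and 11.4% against 2.22% and 3.55%).

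How often a sequence has a single best place depends on its length. Windows of the same lengths were cut every 100 nt from the 3' UTRs of the genes in the WT lists. Of 19982 exact windows, 20.2% of those of 16 nt had their own position as the single best place, 48.8% at 17 nt, 73.3% at 18 nt, 85.8% at 19 nt and 90.9% at 20 nt, against 94.2% at 22 nt. With 1 mismatch put into each window the shares were 0.12%, 1.24%, 7.17%, 24.7% and 52.7%, against 86.9% at 22 nt. With a mismatch, most windows of 16 to 19 nt and just under 50% of those of 20 nt were not placed at their own position. No 16 or 17 nt sequence outside Mir21 had a mismatch, and the part of the placement in the numbers by length was not tested. Of the 555 short sequences outside Mir21, 191 had no other place in the genome within 1 mismatch. The rest were exact matches with at least 1 further place at 1 mismatch.

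The short class ended in A far less often than the longer sequences of the same libraries. Of the sequences turned to their gene, 40.4% of the short class ended in A in WT liver (82 of 203, 33.9 to 47.3) against 88.8% of those of 21 nt or longer (2833 of 3192, 87.6 to 89.8). In WT spleen the shares were 37.4% (67 of 179, 30.7 to 44.7) and 90.2% (1648 of 1828), in Miwi2-/- liver 54.0% (27 of 50, 40.4 to 67.0) and 88.6% (328 of 370), and in Miwi2-/- spleen 59.5% (22 of 37, 43.5 to 73.7) and 91.8% (201 of 219). The adjusted p by Fisher's exact test was 6.19e-55 in WT liver, 1.71e-55 for WT spleen, 1.10e-07 for Miwi2-/- liver and 8.26e-06 for Miwi2-/- spleen, over 12 tests of end bases. The 3' UTRs themselves held 26.7% A. The short class was nearer to this value than the longer sequences in all 4 libraries, but each interval of the short class lay above it. In WT liver the short class had 20.7% C, 19.7% G and 19.2% U at the 3' end. Among exact matches alone the shares were 36.9% of 187 short against 86.8% of 1378 longer sequences in WT liver. An A added where the genome also has A counts as an exact match, so this filter cannot set such ends apart. With a mismatched 3' A left out of the length, the difference of short minus longer went from -48.4 to -20.6 points in WT liver and from -52.7 to -25.5 in WT spleen, both still past the test. It was -7.44 points in Miwi2-/- liver (adjusted p = 0.576, Fisher's exact test) and -2.95 in Miwi2-/- spleen (0.972).

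The share of 3' A ends rose sharply with length. In WT liver 44.4% of the 16 to 19 nt sequences (55 of 124) ended in A, 34.2% at 20 nt (27 of 79), 72.6% at 21 nt (90 of 124) and 89.4% at 22 nt or longer. WT spleen held 35.7% at 16 to 19 nt (40 of 112), 40.3% at 20 nt (27 of 67), 83.9% at 21 nt (130 of 155) and 90.7% at 22 nt or longer. In both WT libraries the 20 nt sequences were thus like the shorter ones, and the rise lay between 20 and 21 nt.

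In the Miwi2-/- libraries the 20 nt sequences were nearer to the longer ones. At 20 nt, 72.7% of the Miwi2-/- liver sequences (24 of 33, 55.8 to 84.9) and 70.8% of the Miwi2-/- spleen sequences (17 of 24, 50.8 to 85.1) ended in A. The WT intervals at 20 nt were 24.7 to 45.2 in liver, which the Miwi2-/- interval did not reach, and 29.4 to 52.3 in spleen, which it did. At 16 to 19 nt the shares were 17.6% (3 of 17, 6.19 to 41.0) and 38.5% (5 of 13, 17.7 to 64.5). Among exact matches at 20 nt the counts were 17 of 25 in Miwi2-/- liver and 9 of 15 in Miwi2-/- spleen, against 17 of 67 in WT liver and 19 of 56 in WT spleen. The difference between libraries at 20 nt was noticed in the data and was not tested. Within the short class, the excess of the Miwi2-/- lists also lay largely at 20 nt. In liver the excess was not confined to that length, with 10.6% against 3.84% at 21 nt.

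**Figure D2:**
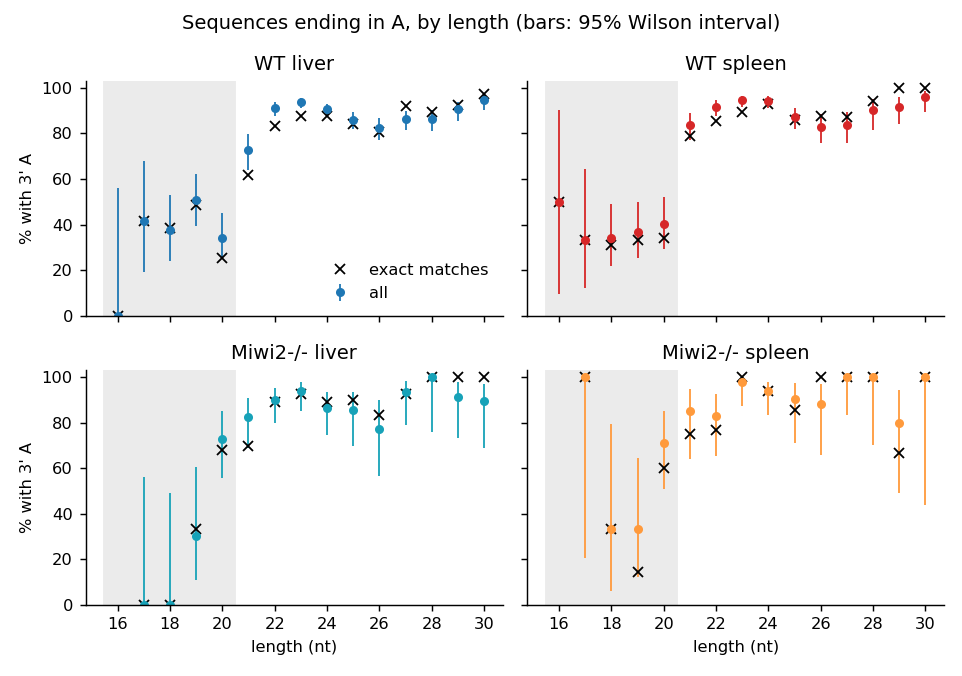
Percent of sequences whose last base is A (y axis) by length in nt (x axis) in each library, with points for all sequences, bars for the 95% Wilson interval and crosses for exact genome matches, and the 16 to 20 nt class in grey. The WT libraries stand at 34.2% and 40.3% at 20 nt and at 72.6% and 83.9% at 21 nt, whereas the Miwi2-/- libraries stand at 72.7% and 70.8% at 20 nt.

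A part of the 3' A ends did not match the genome, and this too was rarer in the short class. In WT liver 7.88% of the short sequences had 1 mismatch against 56.8% of the longer ones, and 8.94% against 61.2% in WT spleen, 18% against 62.7% for Miwi2-/- liver and 29.7% against 65.8% for Miwi2-/- spleen. An A at the 3' end that differed from the genome was found on 4.43%, 6.15%, 14% and 21.6% of the short and on 47.2%, 48.9%, 51.4% and 54.3% of the longer sequences, in the same order. All 8 differences passed Fisher's exact test, with adjusted p from 5.25e-46 to 2.86e-04. The placement windows above move in the same direction, since at 19 nt 24.7% of windows with a mismatch could be placed against 85.8% of exact ones, and their part in this difference was not tested. Of the 52 short sequences with a mismatch, 36 had it at the last base, and in 35 of these the base was A.

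The 5' base showed no difference between short and longer sequences that passed the test. A short sequence began with A in 37.4% of cases in WT liver (31.1 to 44.3), 45.3% for WT spleen (38.1 to 52.6), 26% for Miwi2-/- liver (15.9 to 39.6) and 35.1% for Miwi2-/- spleen (21.8 to 51.2). The longer sequences began with A in 38.9%, 42.2%, 37.6% and 33.3%. A 5' U, the usual first base of a piRNA, was found on 34.0%, 33.5%, 50% and 45.9% of the short and 35.7%, 32.9%, 34.9% and 39.3% of the longer sequences. The widest gap, 5' U in Miwi2-/- liver (25 of 50 against 129 of 370), had an adjusted p of 0.102 by Fisher's exact test. The 95% interval of that share ran from 36.6 to 63.4, so the Miwi2-/- lists were too short to place it closely. Bases of the 3' UTRs were 30% U, 26.7% A and 22.1% G, and 12.3% of the short sequences of WT liver and 5.59% of those of WT spleen began with G.

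Where a short sequence lay with a longer one of the same list, it more often shared the 5' end than the 3' end. The 5' end was shared with a sequence of 21 nt or longer by 23 of 203 short sequences in WT liver (11.3%, 7.67 to 16.4), 29 of 179 for WT spleen (16.2%, 11.5 to 22.3), 12 of 50 for Miwi2-/- liver (24.0%, 14.3 to 37.4) and 7 of 37 for Miwi2-/- spleen (18.9%, 9.48 to 34.2). The 3' end was shared by 8 (3.94%), 13 (7.26%), 3 (6.00%) and 4 (10.8%). Counting only those that shared 1 of the ends, 20 shared the 5' end and 5 the 3' end in WT liver, 22 and 6 for WT spleen, 11 and 2 for Miwi2-/- liver, and 4 and 1 for Miwi2-/- spleen. The adjusted p by an exact McNemar test was 0.00815 in WT liver and WT spleen, 0.0299 for Miwi2-/- liver and 0.375 for Miwi2-/- spleen. These calls depended on the settings. With exact matches alone no library passed, and the direction turned in Miwi2-/- liver, where 1 shared the 5' end and 2 the 3' end. With any longer sequence counted, and not only those of 21 nt or longer, the adjusted p by the exact McNemar test was 0.0514 in WT liver, WT spleen and Miwi2-/- liver. WT liver also did not pass with 16 to 19 nt as the short class (0.131, exact McNemar test) or with a mismatched 3' A left out of the length (0.181).

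**Figure D3:**
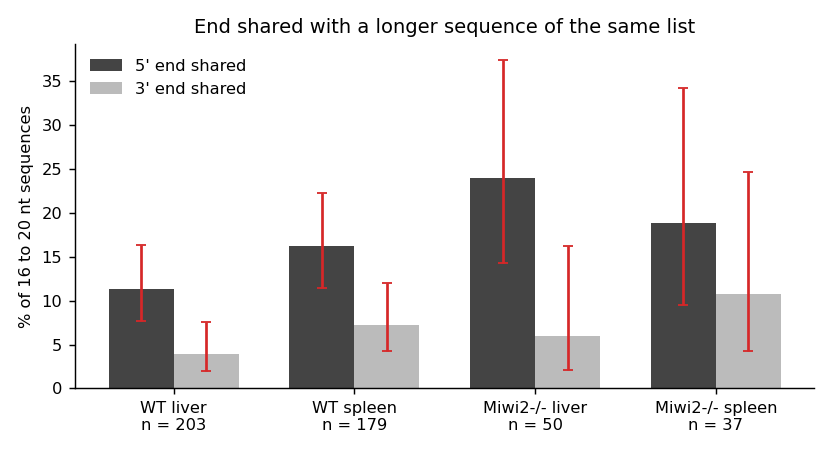
Percent of the 16 to 20 nt sequences (y axis) whose 5' end (dark bars) or 3' end (light bars) is also that of a sequence of 21 nt or longer in the same list, by library, with 95% Wilson intervals in red. The 5' bars stand at 11.3% to 24.0% and the 3' bars at 3.94% to 10.8%.

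Most short sequences had no longer sequence over them at all. No sequence of 21 nt or longer overlapped 119 of the 203 in WT liver (58.6%), 108 of 179 for WT spleen (60.3%), 31 of 50 for Miwi2-/- liver (62.0%) and 25 of 37 for Miwi2-/- spleen (67.6%). A further 45, 43, 14 and 9 lay wholly inside a longer sequence. Their median distance to the annotated end of the 3' UTR was 843, 937, 846 and 809 nt, beside 740.0, 1080.5, 715 and 956 nt for the longer ones. Their median GC content was 40%, 42.1%, 40% and 41.2%, beside 36.4%, 37.9%, 37% and 39.1%.

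The short sequences were spread thinly over many genes. They came from 140 genes in WT liver, 132 for WT spleen, 37 for Miwi2-/- liver and 27 for Miwi2-/- spleen, and 78.6% to 86.5% of these genes had a single one. Genes with many sequences mostly had some, namely 17 of the 23 genes with 20 or more sequences in WT liver and 8 of 9 in WT spleen. Of the 285 genes, 244 had short sequences in 1 list, 35 in 2, 2 in 3 (Hist1h1c and Mbnl1) and 4 in all 4 (Trim25, Dnmt3a, Fam53c and 4933403F05Rik). The number of lists per gene was not counted for sequences of all lengths, so this spread is not shown to be particular to the short class. Some of the 285 genes had no sequence of any length in the other tissue. Scd1 and Alb had none in either spleen list, and Setd7 had none in either liver list. No count by gene was tested.

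In liver, Scd1 had the most, with 12 short of 135 sequences in WT liver and 7 of 34 in Miwi2-/- liver, and no sequence of any length in either spleen list. In WT liver it was followed by Trim25, a ubiquitin ligase of antiviral signalling, with 11 of 91, and by 4933403F05Rik, an uncharacterised gene, with 5 of 67. Alb had 4 of 84, Slc38a4, an amino acid transporter, 4 of 25, Dnmt3a 4 of 10, Errfi1, an inhibitor of the EGF receptor, 3 of 70, Uox, the urate oxidase of liver peroxisomes, 3 of 33, and Stard4, a sterol carrier, 3 of 29. The share of a gene's sequences that were short thus ran from 3 of 70 in Errfi1 to 4 of 10 in Dnmt3a. In Miwi2-/- liver the genes after Scd1 were 4933403F05Rik with 4 of 9, Dnmt3a with 3 of 5, Fam53c with 2 of 6, and Epas1, which encodes a hypoxia-inducible factor, with 2 of 5.

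The 12 Scd1 sequences of WT liver and the 7 of Miwi2-/- liver were all different, 19 distinct ones in all, and 4 of them shared the 5' end with a longer sequence of their list. Trim25 had 21 distinct short sequences among its 24 entries. Its 19 nt sequence at chr11:88881030-88881048 was in both WT lists, and an 18 nt one that began 1 base later and stopped at the same base was in both spleen lists.

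In spleen, Hist1h1c led with 13 short of 75 sequences in WT spleen and 6 of 32 in Miwi2-/- spleen, whereas WT liver had 3 of 10 and Miwi2-/- liver had no Hist1h1c sequence. Trim25 had 10 of 90 in WT spleen and 2 of 15 in Miwi2-/- spleen. Dnmt3a had 3 of 21 and 2 of 4 in the same lists, and 4933403F05Rik had 3 of 21 in WT spleen. WT spleen had a further 2 each at Ets1 (of 23), a transcription factor of lymphocytes, Setd7 (of 16), a lysine methyltransferase, Mlec (of 13), a lectin of the endoplasmic reticulum, Lpp (of 14), a protein of cell adhesions, and Cggbp1 (of 11), a DNA-binding protein. Miwi2-/- spleen had 3 of 5 at Hbb-b2 and 2 of 10 at Mbnl1. Hbb-b2 encodes a beta chain of haemoglobin and has a near-identical neighbour, so its sequences may not all belong to it.

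The Hist1h1c site held most of the gene's short sequences. It is placed by the 3' UTR of GENCODE M1. Histone mRNAs mostly end in a stem-loop, and whether the Hist1h1c mRNA reaches this site was not tested. In WT spleen 10 of the 13 lay between 49 and 87 nt from the start of the 3' UTR, with 49 longer sequences of up to 30 nt, and in Miwi2-/- spleen 4 of the 6 lay there with 23 longer ones. All 10 and all 4 shared their 5' end with a longer sequence, and all matched the genome exactly. Of these, 5 of the 10 and 3 of the 4 also shared their 3' end with a longer sequence. The 10 of WT spleen began at 9 different bases and stopped at 5 different bases. Of the longer sequences there, 43 of 49 and 20 of 23 ended in A, and of the short ones 5 of 10 and 1 of 4. These sequences overlap one another, so they are not independent cases.

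**Figure D4:**
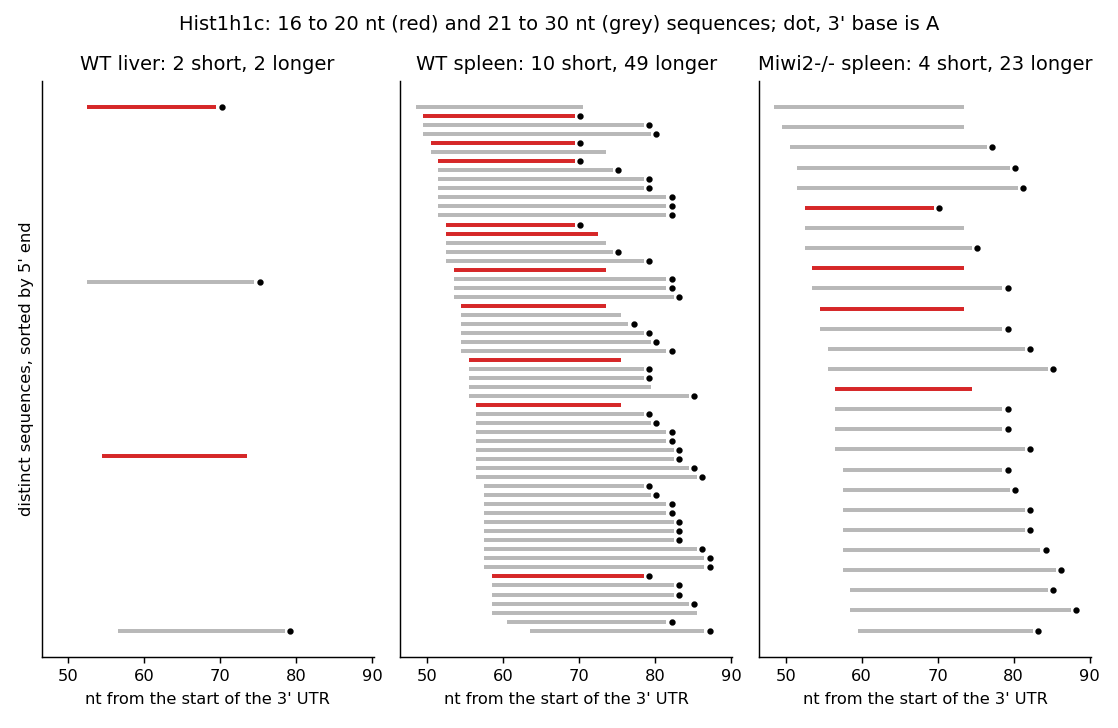
Each line is a distinct sequence at the Hist1h1c site in 1 library (panels), drawn from its 5' to its 3' end in nt from the start of the 3' UTR (x axis) and sorted by 5' end, in red for 16 to 20 nt and in grey for 21 to 30 nt, with a dot where the last base is A. In WT spleen the 10 red lines begin at the same bases as grey lines, and 5 of them also end where a grey line ends. A dot is on 5 of the 10 red and 43 of the 49 grey lines.

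At the Dnmt3a site the same short sequences came back in all libraries. A pair of sequences, of 19 and 20 nt and ending together at chr12:3911945, were in each of the 4 lists, and another that ran 1 base further was in WT spleen and Miwi2-/- liver. Of the 10 entries in the 4 lists none ended in A, 7 shared the 5' end with a longer sequence and 1 the 3' end, and all matched the genome. Of the 6 longer entries, 5 ended in A and 1 matched the genome.

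Few other short sequences recurred. Outside Mir21 there were 526 distinct ones, of which 506 were in 1 list, 14 in 2, 3 in 3 and 3 in all 4, the last being the pair at Dnmt3a and 1 at Fam53c. WT spleen and Miwi2-/- spleen shared 12, or 5.63% of the first and 21.8% of the second, and WT liver and Miwi2-/- liver shared 5, or 2.16% and 9.09%. WT liver and WT spleen shared 10 (4.31% and 4.69%). Recurrence was not counted for the longer sequences, so these shares are not shown to be particular to the short class. Genes with an identical short sequence in lists of both tissues were Dnmt3a, Hist1h1c, Trim25, Fam53c, 4933403F05Rik, Klhdc10 and AI464131.

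Histone genes stood out in the spleen lists, a group that was chosen after the values were seen. Their mRNAs mostly end in a stem-loop in place of a poly(A) tail. With the deposited regions counted also where GENCODE M1 had no 3' UTR, 22 of 213 short sequences in WT spleen (10.3%) and 16 of 55 in Miwi2-/- spleen (29.1%) lay at histone genes, beside 4.44% and 18.6% of the longer sequences. In WT liver there were 3 of 232 (1.29%) and in Miwi2-/- liver none of 55. After Hist1h1c, with 22 in the 4 lists, they were at H4c8 (6), H3c15 (5), H3c1 (4), Hist1h4h (3) and Hist1h4a (1). Histone genes have many near-identical copies. Each of these sequences had a single best place, which for an exact match allows other places with 1 mismatch.

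Genes of the tissue lists are given beside all genes with a sequence in the list, of which 140 of 495 had a short one in WT liver and 132 of 348 in WT spleen. Of 41 genes of secreted plasma proteins, 15 had sequences in WT liver and 5 of these had short ones, 8 of 260 sequences (3.08%), namely Alb, Ahsg, Ambp, Fgg and Hpx, and both spleen lists had none of any length. Of 40 hepatocyte enzymes and transporters, 16 had sequences in WT liver and 6 had short ones, 17 of 289 sequences (5.88%), among them Scd1, Cyp3a11, Fbp1 and Tdo2. Of 16 liver transcription factors and regulators, 6 had sequences in WT liver and 5 had short ones (11 of 152 sequences, 7.24%), namely Errfi1, Ppara, Cebpa, Hnf4a and Zhx3. The whole WT liver list held 5.72%. In Miwi2-/- liver these 3 lists had 1 of 35, 7 of 60 and 1 of 22, and in the spleen lists only Cyb5 had any, 1 in WT spleen. Of 36 immune and blood cell genes, 5 had sequences in WT spleen and 3 had short ones, namely Trim25, Mef2c and Tcf4 (12 of 149 sequences, 8.05%, beside 8.80% of the whole list), and 10 of the 12 were at Trim25. The same list had 11 of 99 (11.1%) in WT liver, all at Trim25, 1 of 8 in Miwi2-/- liver and 3 of 18 in Miwi2-/- spleen. Of 24 genes of small RNA pathways, Tnrc6a had 1 in WT liver and Eif2c3, an Argonaute, 1 in WT spleen. Of 9 histone genes on the list used, Hist1h1c alone had short sequences. That list did not hold the other histone genes named above.

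The markers bear on the labels only in part. Of 5 hepatocyte markers, Alb and Hnf4a had sequences in WT liver and Alb in Miwi2-/- liver, with none in either spleen list. Markers of B cells (4 genes), T cells (3), erythroid cells (3) and leukocytes (1) had no sequence of any length in any list, so the spleen label could not be checked with them. A gene entered the lists only if its 3' UTR passed the authors' limits, among them at least 3 small RNAs. A count of 0 therefore sets no limit on the share of a marker in the library.

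Of the 555 short sequences outside Mir21, 83 lay outside the 3' UTRs of GENCODE M1, and 80 of these were inside a deposited region, named here by its RefSeq gene. The genes given here were chosen after their values were seen. Vmp1, the host gene of Mir21, had 7 in WT spleen and 1 in Miwi2-/- spleen, all outside the Mir21 gene, Elk4, a transcription factor, had 3 in WT liver and 4 in WT spleen, and Ppara, the fatty acid receptor of liver, had 3 in WT liver. Miwi2-/- spleen had 18 such sequences of its 55, WT spleen 32 of 213, WT liver 28 of 232 and Miwi2-/- liver 5 of 55. For comparison, the short sequences that could be turned to a gene were 37 of 55, 179 of 213, 203 of 232 and 50 of 55. Among the longer sequences outside Mir21 they were 219 of 253, 1828 of 2208, 3192 of 3827 and 370 of 409, in the same order.

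Elp3, which encodes the catalytic subunit of Elongator, was the best place of 3 sequences in WT spleen, all of them short, but whether they came from Elp3 or from a let-7 microRNA cannot be told apart from the lists. They lay at chr14:66149812-66149831 (minus strand, 3' UTR) and began at the same base. They are shown beside the mature let-7b-5p of RefSeq, with the bases at which they differ in capitals, positions counted from 1 at the 5' end of the microRNA and the base of the microRNA first.
let-7b-5p: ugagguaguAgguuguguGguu
Elp3, 20 nt: tgaggtagtGggttgtgtTg
Elp3, 18 nt: tgaggtagtGggttgtgt
Elp3, 17 nt: tgaggtagtGggttgtg
All 3 carried A10G, and the 20 nt sequence also G19U. The 17 and 18 nt sequences matched the 3' UTR of Elp3 exactly, and the 20 nt sequence did so but for 1 base. Compared with all mouse hairpins of the RefSeq table, 4 of 555 short sequences lay within 2 mismatches of a hairpin, these 3 and 1 at Ubn2, and 17 of the 6697 longer ones.

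The Mir21 gene (minus strand, chr11:86397569-86397660), which lies inside Vmp1, gave 51 short sequences in WT liver, 55 for WT spleen, 26 for Miwi2-/- liver and 19 for Miwi2-/- spleen. The mature miR-21a-5p of RefSeq is given with its seed, bases 2 to 8, in capitals, followed by those exact matches that began at its first base and were in all 4 lists.
miR-21a-5p: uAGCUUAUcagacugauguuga
Mir21, 20 nt: tAGCTTATcagactgatgtt
Mir21, 19 nt: tAGCTTATcagactgatgt
Mir21, 18 nt: tAGCTTATcagactgatg
Mir21, 17 nt: tAGCTTATcagactgat
Mir21, 16 nt: tAGCTTATcagactga
These 5 kept the 5' end and the seed of the microRNA and stopped 2 to 6 bases before its end.

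Of the 151 short sequences at Mir21, 88.7% began at base 1 of miR-21a-5p (45, 50, 23 and 16 in WT liver, WT spleen, Miwi2-/- liver and Miwi2-/- spleen), and 5 lay on the 3p arm. In all, 32 matched the genome exactly, and 119 differed by 1 base or had 1 base not called, the latter in 15 cases. The mismatches of the sequences that began at base 1 were at 19 different positions, 26 of 114 of them in the seed and 1 at the last base. By length, 90 were of 20 nt, 39 of 19 nt, 10 of 18 nt, 8 of 17 nt and 4 of 16 nt. Only 4 of them ended in A, the 16 nt sequence in each list. Of the 469 short sequences of other genes, 52 had a mismatch and 36 of these had it at the last base. The authors state that known microRNAs were taken out, yet exact matches to parts of miR-21a-5p were in all 4 lists. What was left at Mir21 is therefore no measure of the level or the variants of miR-21.

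**Figure D5:**
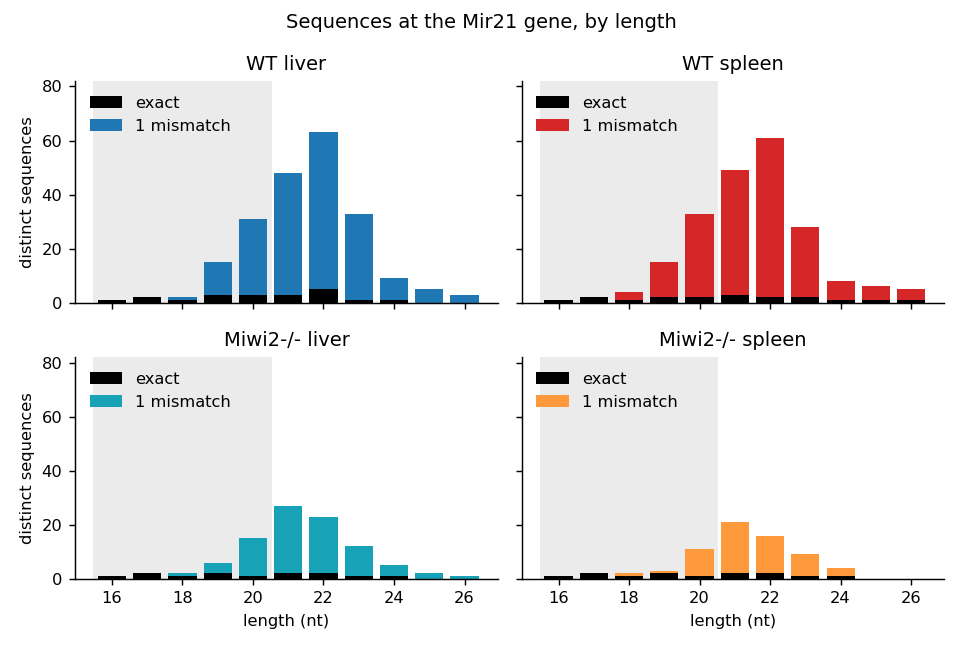
Number of distinct sequences at the Mir21 gene (y axis) by length in nt (x axis) in each library, in black for exact matches and in colour for those with 1 mismatch, with the 16 to 20 nt class in grey. At 20 nt there are 31, 33, 15 and 11 sequences in WT liver, WT spleen, Miwi2-/- liver and Miwi2-/- spleen, and the WT lists peak at 22 nt, the Miwi2-/- lists at 21 nt.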

How the data were processed

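Small RNAs of the liver and spleen were sequenced by the authors in 1 library per tissue and genotype. Per the labels, CASAVA 1.8, cutadapt, Bowtie and bedtools were used with mm9. After adapter trimming, the authors merged identical reads. By their methods, reads within 3 mismatches of a known structural RNA or miRNA were taken out, though sequences of miR-21a-5p remained in the lists. Unique placements with at most 1 mismatch that fell in 3' UTR clusters were retained. The deposited lists hold 1 distinct sequence per line with no count, and the deposited regions of the WT libraries hold positions and RefSeq accessions, of which 779 of 782 that held sequences matched a symbol in the RefSeq table.

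Each sequence was placed on NCBIM37 without gaps and with at most 1 mismatch (Python 3.11.15, numpy 2.4.6, numba 0.67.0), and turned to the strand of the GENCODE M1 3' UTR covering at least 50% of it. All 7845 listed sequences read along the plus strand of the genome, so an RNA antisense to its gene could not be told apart. The placement and the statistical tests were tested on simulated data, in which a short sequence with a mismatch was often placed at a wrong position. Fisher's exact, exact McNemar and Wilson calculations used scipy 1.17.1 with Benjamini-Hochberg adjustment at 0.05, over 3 tests of shares, 12 of end bases, 8 of mismatches and 4 of shared ends. Positions are 1-based. Sequences of miRNAs are from RefSeq. Figures were drawn with matplotlib 3.10.9.

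Named genes are the 10 with the most short sequences in each WT list and the 5 in each Miwi2-/- list. Up to 5 of each gene list, and genes with an identical short sequence in both tissues, are also named. Sequences on 1 chromosome are not printed. The members, gene lists and tests were chosen with earlier results of these data known. The alternatives were other limits of the short and the longer class, exact matches, a mismatched 3' A left out of the length, the deposited regions and strand, full cover by the 3' UTR, Mir21 kept in, and the gene with the most short sequences left out.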

Additional observations from a re-analysis of the deposited data

How the results depend on the processing

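No paired analysis was possible because each group has 1 library and no replicate numbers. Of 190 values under other settings, 155 counted as unchanged. For a tested difference this means no turn in direction and the same side of the threshold, and a fall to 0 was counted as no turn. For a number of genes, which has no test, it means a value near the main one. Sequences of 16 and 17 nt are few and hard to place, and each test compares 2 libraries without replicates. With 16 to 19 nt as the short class, the share differed by 1.03 points between the liver lists and 1.25 between the spleen lists, neither called, the numbers of genes were 89 in WT liver, 14 in Miwi2-/- liver and 10 for Miwi2-/- spleen, the excess of 5' over 3' shared ends was 5.65 points in WT liver and 23.5 in Miwi2-/- liver, neither called, and the 5' A difference turned to 0.690 in WT liver and the 5' U difference to -0.839 in WT spleen and -1.87 in Miwi2-/- spleen. With Mir21 kept in, short minus longer 5' U was 6.19 points in WT liver, not called, and 8.31 in WT spleen and 19.5 in Miwi2-/- liver, both called, 5' A was -2.62 in WT spleen and -1.73 in Miwi2-/- spleen, not called, and -15.4 in Miwi2-/- liver, called, and the excess of 5' shared ends in Miwi2-/- spleen, 19.6 points, was called. Here the start of miR-21a-5p, a U, adds to 5' U by construction. With a mismatched 3' A left out of the length, the 3' A differences were -7.44 for Miwi2-/- liver and -2.95 for Miwi2-/- spleen, and the excess of 5' shared ends to 3.70 in WT liver, all no longer called, and 5' U in WT spleen was -1.03. With exact matches, the excess of 5' shared ends was 3.74 in WT liver, 5.52 in WT spleen and -2.44 in Miwi2-/- liver, none called, 5' U in WT liver was 1.93, and 5' A was -0.144 in WT spleen and -13.2 in Miwi2-/- spleen. With longer sequences of 21 to 25 nt, 5' U in WT spleen was -1.33. With the deposited regions and strand, 5' U in WT spleen was -0.742 and 5' A in Miwi2-/- spleen -6.22. With any longer sequence counted, the excess of 5' shared ends was 5.42 in WT liver, 7.26 in WT spleen and 16 in Miwi2-/- liver, none called. In Miwi2-/- liver it was 17 with 18 to 20 nt as the short class and 16.3 without Scd1, neither called, and both settings were added after seeing the data. The cause of these changes was not tested. The 3' A difference was called in both WT libraries in every setting run, but with a mismatched 3' A left out of the length it went from -48.4 to -20.6 points in liver and from -52.7 to -25.5 in spleen.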
